A study of Mus musculus with 6 samples.

Results

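The expression of 10 immediate early genes was examined in GFP+ MLL-AF9 leukemia cells that had been sorted out of bone marrow after the mice received FF-10501-01 or vehicle. These are Fos, Fosb, Jun, Junb, Jund, Egr1, Ier2, Dusp1, Zfp36 and Atf3, chosen by name from the 26384 entries of the table, in which each of the 10 had a single unmerged entry. FF-10501-01 is an oral inhibitor of inosine monophosphate dehydrogenase, on which cells depend to make guanine nucleotides, and the cells were mouse bone marrow cells transformed by the MLL-AF9 fusion oncogene, which co-express GFP and had been passaged serially from mouse to mouse. The cells grew in nonirradiated C57BL/6J recipients, and the study's mice were 8 to 12 weeks old. There were 3 libraries from mice given FF-10501-01 at 160 mg/kg on 2 consecutive days and 3 from mice given vehicle on the same days. By the labels both groups were harvested 48 h after the first dose, while the study's RNA-Seq methods state harvest 24 h after treatment. All 6 libraries come from transplanted MLL-AF9 cells, and whether these go back to 1 leukemia is not stated. The p-values below measure the spread between these recipient mice and their libraries only.

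Immediate early genes are switched on within minutes of a stimulus by kinases that activate factors already bound to their promoters, and they need no new protein synthesis. Their products fall into transcription factors, such as the Fos and Jun proteins that pair to form AP-1 and the zinc finger factor EGR1, and inhibitors that end the response, such as the phosphatase DUSP1 and the mRNA decay factor tristetraprolin, encoded by Zfp36. Their transcripts are short-lived, and in myeloid cells they are induced by Toll-like receptor ligands, cytokines and growth factors.

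The table gives expression as FPKM, fragments scaled to transcript length and to the mapped fragments of the library. It holds no read totals. From the steps between low values, the depth relative to vehicle replicate 1 was estimated at 0.987 to 1.11 in the FF-10501-01 libraries, against 1.00 and 1.25 in the other vehicle libraries, but only 20.2 to 22.1% of the low entries lay within 0.01 of these estimates. Pearson's r across genes was 0.979 to 0.995 between libraries. The defining genes of myeloid MLL-AF9 cells were abundant, with Hoxa9 (in an entry merged with Mir196b) at 239 to 255 FPKM in FF-10501-01-treated cells and 189 to 232 FPKM in vehicle-treated cells, and Meis1, Itgam and Ptprc present in every library. In the same list of 10 markers Itgam (log2 fold change 0.33), Lyz2 (0.52), Csf3r (0.35), Cd68 (0.34) and Hoxa9 (0.27) were higher and Kit (-0.27) was lower in FF-10501-01-treated cells by the test described below (adjusted p 0.00847 to 0.0476 from limma). Hoxa9 (adjusted p = 0.0465) and Kit (0.0476) passed limma narrowly. The paper, which used Cuffdiff, instead reports no effect of FF-10501-01 on Hoxa9 or Meis1, and Meis1 did not pass here. How far the marker calls depend on single libraries was not examined. Of the 10 neutrophil markers examined 8 were tested and 6 of these were higher, against 7.43% of all genes tested. Among the 6 was Cxcr2, which was below 1 FPKM in every vehicle library. Cxcr2 reached the level required for the test only through the treated libraries. The neutrophil markers had a summed level of 925 to 1906 FPKM in FF-10501-01-treated cells and 542 to 591 FPKM in vehicle-treated cells. Of the 8 macrophage markers with an entry 3 were tested, and Vcam1 and Siglec1 were higher, against 7.43% of all genes tested. By limma the remaining tested marker was lower where p was not adjusted, and it did not pass. The summed level of the 8 was 62.8 to 84.4 FPKM in FF-10501-01-treated cells and 45.6 to 55.8 FPKM in vehicle-treated cells. In the paper, the leukemia cells of treated mice were themselves more differentiated along the myeloid line, judged by their morphology and surface markers. Whether the neutrophil and macrophage markers came from such leukemia cells or from other cells was not tested. Neutrophils and macrophages are known to express immediate early genes. The part of these cells, or of leukemia cell differentiation, in the results below was not tested. Among erythroid, B cell, T and NK cell markers, 7 of 8, 7 of 8 and 7 of 9 were below 1 FPKM in all 6 libraries. The same held for 5 of 8 megakaryocyte and platelet markers and 8 of 10 stromal and endothelial markers. The latter summed to 51.4 to 61.6 FPKM in FF-10501-01-treated cells and 49.9 to 55.1 FPKM in vehicle-treated cells. By limma the B cell marker Cd79b was lower (adjusted p = 0.0214). The platelet marker Gp9 was higher (0.0252), from a vehicle mean of 0.952 FPKM. In bulk RNA, fewer cells that express a gene and less RNA per cell cannot be told apart.

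The libraries of each group differed among themselves in this gene family, and that bears on each result below. FF-10501-01 replicate 1 was the lowest of its group for 8 of the 10 genes, FF-10501-01 replicate 2 the highest of its group for 9, and vehicle replicate 2 the highest of its group for 9. Among all 11004 genes tested these places were taken by the same libraries in 33.8%, 34.1% and 37.6%. Averaged over the 10 genes, log2(FPKM + 1) deviated from the gene means by -0.26, 0.23 and 0.019 in FF-10501-01 replicates 1, 2 and 3, and by -0.12, 0.24 and -0.11 in vehicle replicates 1, 2 and 3. For 7 of the 10 genes all 3 of these places held together, against 6.67% of all genes tested. The 3 places were picked from the members' own values after these were seen. The shares of members and of all genes are therefore not alike, and no conclusion is drawn from their difference. Replicates are numbered here in the order of the table's column names, which are not tied to a mouse.

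**Figure D1:**
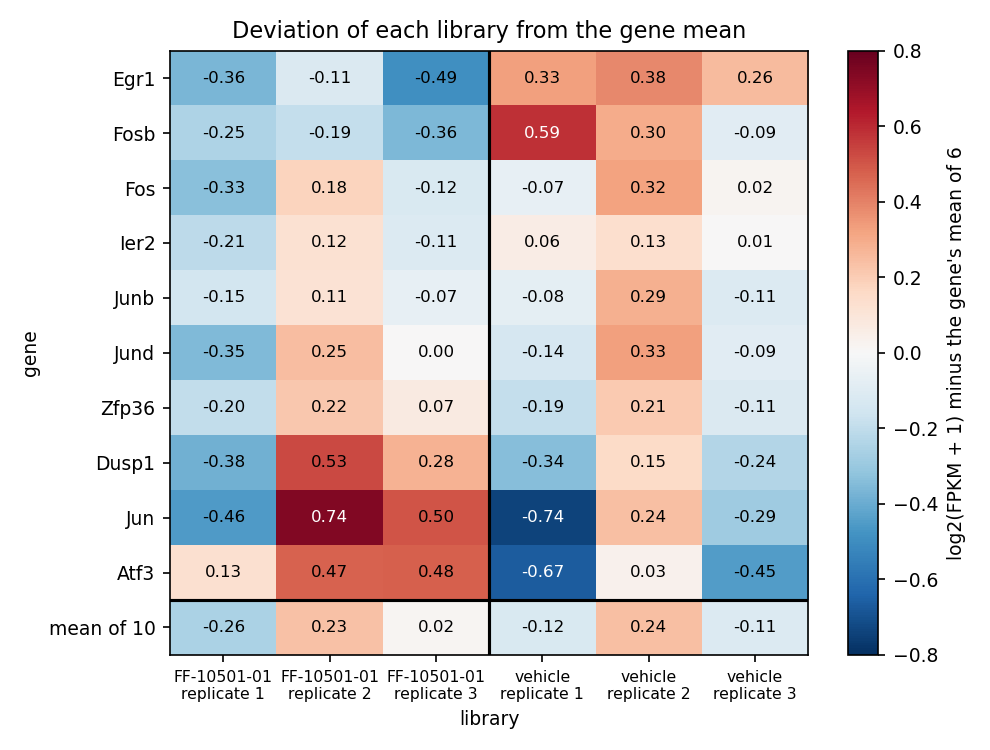
Deviation of log2(FPKM + 1) in each library (columns) from each gene's mean over the 6 libraries (rows), with the mean of the 10 genes in the last row. FF-10501-01 replicate 1 is below the gene mean for every gene but Atf3, vehicle replicate 2 is above it for all 10, and the group difference is visible for Egr1, Fosb and Atf3.

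To show the DNA in front of the genes that moved in opposite directions, the sequences upstream of the start sites of Atf3 and Fosb are given, with those of Jun and Dusp1, which were highest in FF-10501-01 replicates 2 and 3, and of Fos, to which the other members are set in relation. They come from RefSeq (GRCm38.p6) and run 5′ to 3′ on the gene's strand, ending at the base before the RefSeq start, or for Dusp1 at the base before an exon annotated by GENCODE. Capitals mark matches, on either strand, to TGACGTCA (the cAMP response element, CRE), its first part TGACG, the AP-1 site TGACTCA, the variant TGACATCA known from the Jun promoter, the EGR site GCGGGGGCG and TATAAA.
Atf3, chr1:191183334-191183583, minus strand: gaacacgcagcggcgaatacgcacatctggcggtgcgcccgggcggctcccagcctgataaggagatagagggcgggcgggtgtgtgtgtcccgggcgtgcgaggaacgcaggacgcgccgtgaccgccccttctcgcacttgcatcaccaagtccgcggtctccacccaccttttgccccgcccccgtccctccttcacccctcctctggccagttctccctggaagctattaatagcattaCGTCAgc
Fosb, chr7:19310046-19310295, minus strand: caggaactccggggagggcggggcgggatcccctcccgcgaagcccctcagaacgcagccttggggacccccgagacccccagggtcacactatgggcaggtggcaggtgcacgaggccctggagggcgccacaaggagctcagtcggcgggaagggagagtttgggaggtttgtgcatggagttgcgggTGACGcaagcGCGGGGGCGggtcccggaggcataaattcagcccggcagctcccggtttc
Jun, chr4:95052223-95052472, minus strand: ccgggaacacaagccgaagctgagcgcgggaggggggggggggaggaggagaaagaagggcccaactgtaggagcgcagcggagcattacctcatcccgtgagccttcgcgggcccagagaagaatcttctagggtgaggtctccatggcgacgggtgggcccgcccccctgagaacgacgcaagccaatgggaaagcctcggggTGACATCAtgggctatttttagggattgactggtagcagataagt
Dusp1, chr17:26508520-26508722, minus strand: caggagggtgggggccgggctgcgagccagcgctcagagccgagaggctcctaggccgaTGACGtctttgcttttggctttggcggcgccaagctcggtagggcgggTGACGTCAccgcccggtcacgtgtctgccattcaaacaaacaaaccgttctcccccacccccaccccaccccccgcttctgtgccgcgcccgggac
Fos, chr12:85473640-85473889, plus strand: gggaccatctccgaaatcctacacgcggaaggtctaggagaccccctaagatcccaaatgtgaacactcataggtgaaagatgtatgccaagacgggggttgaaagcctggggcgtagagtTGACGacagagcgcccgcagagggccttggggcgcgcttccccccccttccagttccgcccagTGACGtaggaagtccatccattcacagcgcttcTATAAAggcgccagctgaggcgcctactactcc
RefSeq windows were used for 8 of the 10 members, and those of Egr1 and Ier2 were not searched. TGACG was present in the 250 bases before the start in 5 of these 8 (Atf3, Fosb, Junb, Fos and Dusp1) and in 17.8% of 32851 promoter windows, and every match to the full CRE is also a match to TGACG. The full CRE was found in Dusp1 alone among the 8, 143 to 136 bases before the start, and in 1.55% of all windows. TGACATCA stood in Jun (2.93% of all windows), GCGGGGGCG in Fosb and Zfp36 (2.57%), TATAAA in Fos (12.4%) and the CArG box, to which serum response factor binds, in Zfp36 (1.47%). TGACTCA was in none of the 8 and in 4.46% of all windows. A match is a description of the letters and not a sign of binding. TGACG was in the windows of both Fosb and Atf3. Whether any of these matches bears on the direction of a change was not tested.

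In FF-10501-01-treated cells Egr1 and Fosb were lower and Atf3 was higher than in vehicle-treated cells, whereas the other 7 genes did not pass the test. The groups were compared with limma on log2(FPKM + 1), with Benjamini-Hochberg adjustment over the 11004 genes whose mean reached 1 FPKM, and an adjusted p under 0.05 was taken as passed. All 10 members were above this level. Thus 3 of 10 members passed, against 14.9% of all genes tested. In each direction these were 1 of 10 higher (7.43% of all genes) and 2 of 10 lower (7.46%). The median log2 fold change of the members was -0.066 and that of all genes tested was -0.013. The groups did not overlap for 3 of 10 members, against 38.8% of all genes tested. Their spread within groups was wide, and 8 of the 10 had a residual standard deviation above the 90th percentile of all genes tested (Egr1 at the 82.8th and Ier2 at the 78.2nd percentile being the exceptions).

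**Figure D2:**
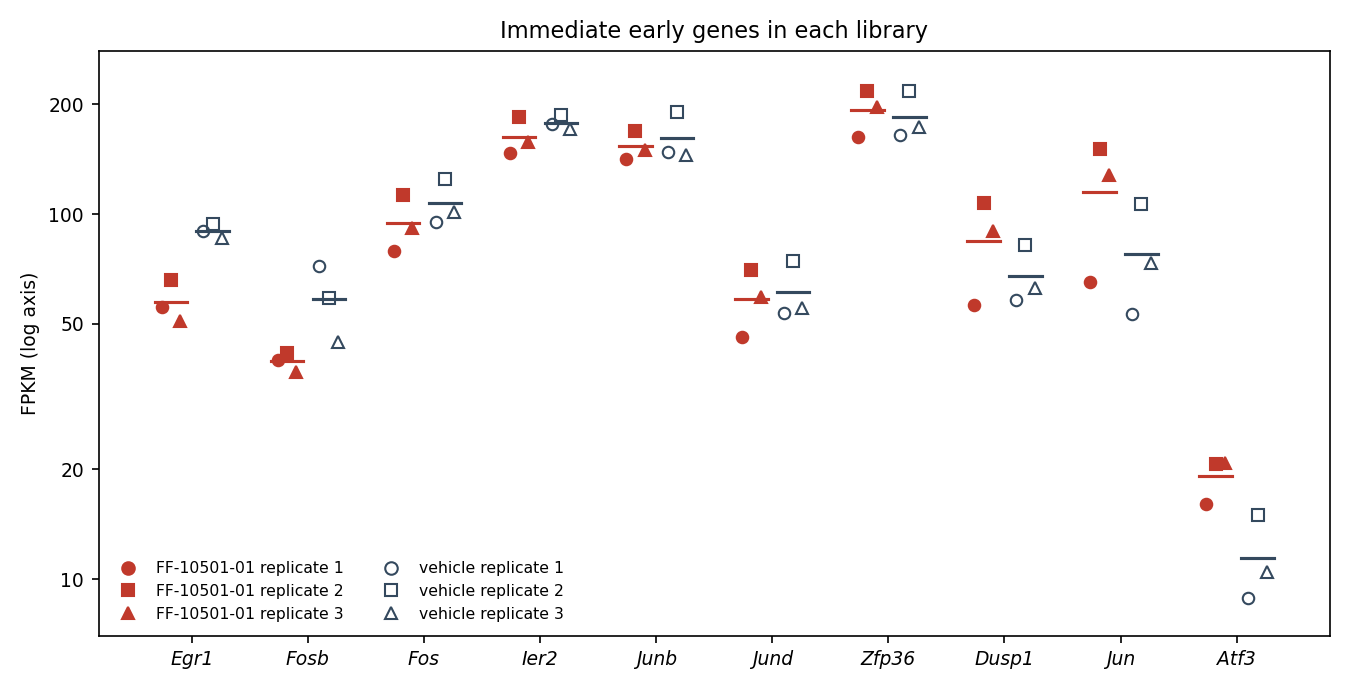
FPKM of the 10 genes (log axis) in each of the 3 FF-10501-01 libraries (filled, left) and the 3 vehicle libraries (open, right), with bars at the group means. The groups separate for Egr1, Fosb and Atf3 and overlap for the other 7 genes.

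Egr1 encodes a zinc finger transcription factor induced by ERK signaling and is known to promote monocytic differentiation. It lies on chromosome 18 of GRCm38 from 34859823 to 34864984. Egr1 was at 55.5, 66.1 and 50.8 FPKM in FF-10501-01-treated cells, against 90.1, 93.7 and 85.7 FPKM in vehicle-treated cells. The highest treated library was below the lowest vehicle library. The mean was 57.5 ± 7.86 FPKM in FF-10501-01-treated and 89.8 ± 4.0 FPKM in vehicle-treated cells (SD, n = 3 per group). The log2 fold change was -0.64 with a standard error of 0.088, and limma gave an adjusted p of 0.00915. By its p it ranked number 76 of the 11004 genes. Egr1 was the one member whose call was kept when any 1 library was left out (adjusted p 0.0125 to 0.0340 from limma). Its relatives were low. Egr3 was at 1.08 to 1.21 FPKM in FF-10501-01-treated cells and 1.47 to 2.51 FPKM in vehicle-treated cells, without passing, and Egr2 and Egr4 had mean levels below 1 FPKM and were not tested.

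Fosb encodes a Fos family partner of Jun proteins and lies on chromosome 7 from 19302696 to 19310051. It was at 39.9, 41.7 and 37.0 FPKM in FF-10501-01-treated cells, against 72.0, 58.8 and 44.7 FPKM in vehicle-treated cells. The treated libraries were close to each other, while the vehicle libraries were spread, with replicate 3 only slightly above the treated ones. Fosb fell to 39.5 ± 2.39 FPKM in FF-10501-01-treated cells, against 58.5 ± 13.7 FPKM in vehicle-treated cells, and the log2 fold change was -0.53 with a standard error of 0.14 (limma, adjusted p = 0.0438). This call was fragile: from limma it was lost without FF-10501-01 replicate 1, 2 or 3 (adjusted p = 0.0844, 0.0827 and 0.145) and without vehicle replicate 1 or 2 (0.0995 and 0.0783). It was also lost without the filter on low values (0.109) and without a trend of variance on level (0.0718).

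Atf3 encodes a bZIP factor induced by stress and by Toll-like receptor ligands, which is known to restrain inflammatory cytokine genes in macrophages. GENCODE places it on chromosome 1 from 191170296 to 191218039, with a start upstream of the RefSeq start used above. Atf3 was at 16.1, 20.7 and 20.8 FPKM in FF-10501-01-treated cells, against 8.87, 15.0 and 10.5 FPKM in vehicle-treated cells. Vehicle replicate 2 came close to the lowest treated library, FF-10501-01 replicate 1, and the groups did not overlap. The mean was 19.2 ± 2.68 FPKM in FF-10501-01-treated and 11.5 ± 3.19 FPKM in vehicle-treated cells, that is 1.68-fold higher (limma, adjusted p = 0.0290), and the log2 fold change was 0.72 with a standard error of 0.17. The call was lost in limma without FF-10501-01 replicate 2 or 3 (adjusted p = 0.0827 and 0.108), without vehicle replicate 1 or 3 (0.0879 and 0.0847), without the filter (0.0850) and without the trend (0.0519). Atf3 was the least abundant of the 10 genes in every library.

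**Figure D3:**
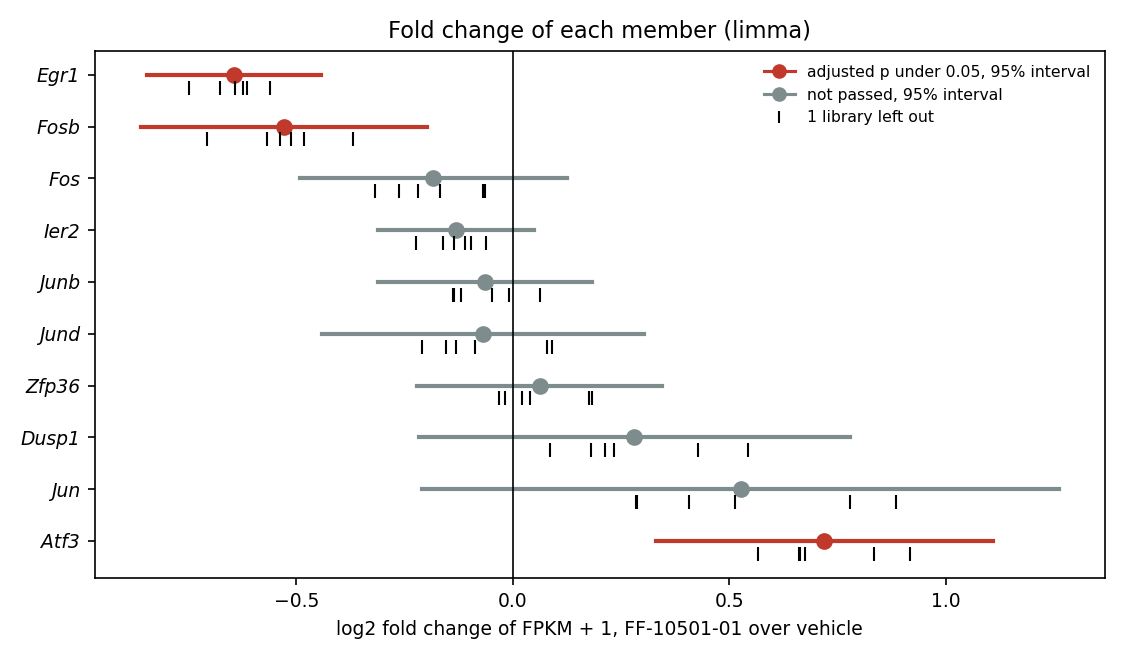
Log2 fold change of FPKM + 1, FF-10501-01 over vehicle, of each gene from limma with its 95% interval (line), and the values when 1 library is left out (ticks). Red marks an adjusted p under 0.05, which Egr1, Fosb and Atf3 reached, and the ticks of Junb, Jund and Zfp36 lie on both sides of 0.

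Of the remaining AP-1 genes, none passed the test. Fos, the founding member of the family and a dimer partner of Jun, was at 79.2, 113 and 91.7 FPKM in FF-10501-01-treated cells, against 95.3, 125 and 101 FPKM in vehicle-treated cells. The ranges overlap broadly, and its log2 fold change was -0.18 (95% interval -0.49 to 0.12, adjusted p = 0.372 from limma). Jun, which pairs with Fos proteins in AP-1, was at 65.3, 151 and 128 FPKM in FF-10501-01-treated cells, against 53.4, 106 and 73.5 FPKM in vehicle-treated cells. Jun was thus above every vehicle library in FF-10501-01 replicates 2 and 3 and within the vehicle range in replicate 1. Its mean ratio was 1.48, with a log2 fold change of 0.53 (95% interval -0.21 to 1.26, adjusted p = 0.287 from limma), and its residual standard deviation stood at the 99.5th percentile of all genes tested. An increase of more than 1 on the log2 scale and no change both lie within this interval. The range of its log2 fold change was 0.29 to 0.88 with 1 library left out. An antisense gene, Junos, overlaps Jun on the other strand, and although the library kit keeps the strand, whether it was used in the counting is not given in the sources used here.

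Junb and Jund, Jun family members that in many settings act against Jun, did not pass either. Junb was at 141, 169 and 149 FPKM in FF-10501-01-treated cells, against 148, 191 and 145 FPKM in vehicle-treated cells (log2 fold change -0.064, 95% interval -0.31 to 0.18, adjusted p = 0.708 from limma). It overlaps Prdx2 on the other strand, whose entry was at 90.9 to 94.4 FPKM in FF-10501-01-treated cells and 94.7 to 102 FPKM in vehicle-treated cells. Jund was at 46.0, 70.4 and 59.1 FPKM in FF-10501-01-treated cells, against 53.7, 74.5 and 55.4 FPKM in vehicle-treated cells (log2 fold change -0.068, 95% interval -0.44 to 0.30, adjusted p = 0.798 from limma). In both genes replicate 2 was the highest library of its group. The sign of both differences turned without vehicle replicate 2, to 0.062 for Junb and 0.080 for Jund, and that of Jund also without FF-10501-01 replicate 1 (0.091).

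Ier2 encodes a small nuclear protein that is induced by growth factors. It was at 147, 185 and 157 FPKM in FF-10501-01-treated cells, against 177, 187 and 171 FPKM in vehicle-treated cells. FF-10501-01 replicates 1 and 3 were below the vehicle range and replicate 2 within it, and the log2 fold change of -0.13 did not pass (95% interval -0.31 to 0.049, adjusted p = 0.279 from limma). With Egr1, Fosb, Fos, Junb and Jund, it was 1 of 6 members with a negative log2 fold change.

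Neither of the genes of feedback products passed. Dusp1, which encodes the phosphatase that inactivates p38 and JNK, was at 56.3, 107 and 89.6 FPKM in FF-10501-01-treated cells, against 58.2, 82.2 and 62.6 FPKM in vehicle-treated cells. As for Jun, FF-10501-01 replicates 2 and 3 were above every vehicle library, while replicate 1 was below all of them. The log2 fold change of 0.28 did not pass (95% interval -0.22 to 0.78, adjusted p = 0.398 from limma). By GENCODE Dusp1 overlaps Ergic1 on the other strand. The Ergic1 entry was at 67.1 to 71.4 FPKM in FF-10501-01-treated cells and 69.8 to 74.3 FPKM in vehicle-treated cells. Zfp36, whose product binds AU-rich elements and speeds the decay of cytokine mRNAs, was at 163, 218 and 197 FPKM in FF-10501-01-treated cells, against 164, 217 and 173 FPKM in vehicle-treated cells. These ranges overlap almost entirely, and the log2 fold change was 0.062 (95% interval -0.22 to 0.34, adjusted p = 0.759 from limma). Its sign turned without FF-10501-01 replicate 2 (-0.032) and without vehicle replicate 1 (-0.017).

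In level, Zfp36, Ier2 and Junb were the highest members in both groups. Zfp36 averaged 193 ± 27.7 FPKM in FF-10501-01-treated and 185 ± 28.1 FPKM in vehicle-treated cells, and its range overlapped with that of Ier2, as did that of Ier2 with Junb. In vehicle-treated cells a gap followed between Junb (at least 145 FPKM) and Fos (at most 125 FPKM), and a further gap between Fos (at least 95.3 FPKM) and Egr1 (at most 93.7 FPKM). Egr1, Jun, Dusp1, Jund and Fosb followed, each overlapping with the next, and Fosb and Atf3 did not overlap. In FF-10501-01-treated cells Jun came before Fos, both overlapping with their neighbours, and gaps separated Egr1 from Fosb and Fosb from Atf3. By group mean Egr1 was thus number 5 of the 10 genes in vehicle-treated cells and number 8 in FF-10501-01-treated cells. Its range overlapped with that of Jun in vehicle-treated cells and with that of Jund in FF-10501-01-treated cells, so these places do not hold in each library.

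Because most members were high or low in the same libraries, each was also set against Fos within its own library. This ratio was chosen after the values were seen, and it compares members with each other. With 3 libraries per group an exact permutation test cannot give a p below 0.1, so it cannot decide for any member. The exact permutation test of the ratio gave p = 0.1 for Egr1, Dusp1, Zfp36 and Atf3. For the other members the exact permutation test gave p = 0.2 to 0.6. Atf3 was at 0.203, 0.183 and 0.227 of Fos in FF-10501-01-treated cells, against 0.0931, 0.120 and 0.103 in vehicle-treated cells. The spread between libraries was narrower here than in its FPKM, and the groups did not overlap. Egr1 was at 0.701, 0.585 and 0.554 of Fos in FF-10501-01-treated cells, against 0.945, 0.749 and 0.846 in vehicle-treated cells, again without overlap. Dusp1 was at 0.712, 0.947 and 0.977 of Fos in FF-10501-01-treated cells, against 0.611, 0.658 and 0.618 in vehicle-treated cells. Zfp36 was at 2.06, 1.93 and 2.15 times Fos in FF-10501-01-treated cells, against 1.72, 1.73 and 1.71 times in vehicle-treated cells. Relative to Fos both feedback genes were higher in all 3 treated libraries than in any vehicle library, and neither passed on its own. The level of Fos enters each ratio: for Zfp36 the mean log2 ratio differed by 0.25, while the log2 fold change was 0.062 for Zfp36 and -0.18 for Fos. Fosb was at 0.369 to 0.505 of Fos in FF-10501-01-treated cells and 0.441 to 0.756 in vehicle-treated cells, so that its ratio overlapped. The ratio to Fos did not overlap between groups for 4 of 9 members, against 11.9% of all genes tested. These shares are not alike, since the members vary with Fos between libraries and most other genes were not chosen for this. All the ratios also share the same denominator, so no conclusion is drawn from the count.

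**Figure D4:**
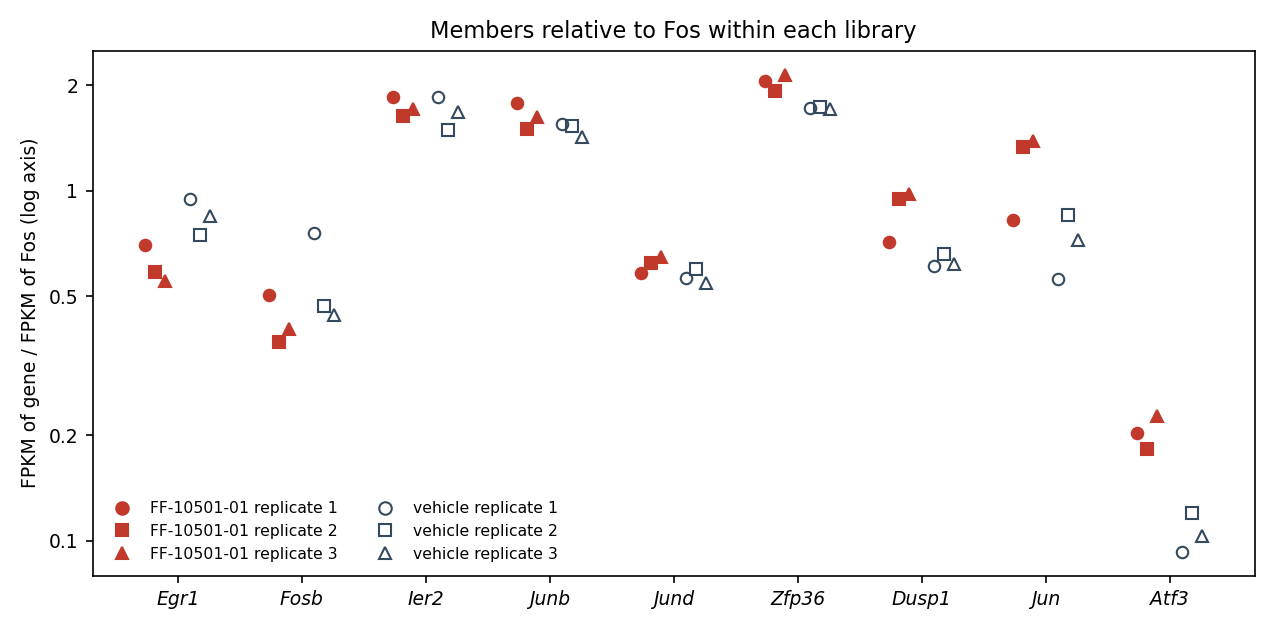
FPKM of each gene divided by the FPKM of Fos in the same library (log axis), for the 3 FF-10501-01 libraries (filled, left) and the 3 vehicle libraries (open, right). Egr1 lies lower, and Zfp36, Dusp1 and Atf3 lie higher, in all 3 FF-10501-01 libraries, and the other 5 genes overlap.

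Of 36 other genes that are induced in the same rapid way, 29 were tested, with 2 higher, 2 lower and 25 not passed (median log2 fold change 0.14). As 7.43% and 7.46% of all genes tested were higher and lower, these counts are near the background. Cebpd, a C/EBP factor of inflammatory responses, rose to 53.6 ± 2.44 FPKM in FF-10501-01-treated cells, against 40.7 ± 3.82 FPKM in vehicle-treated cells (adjusted p = 0.0157 from limma). Ier5, a relative of Ier2, was at 8.26, 12.1 and 12.9 FPKM in FF-10501-01-treated cells, against 4.37, 7.83 and 6.68 FPKM in vehicle-treated cells (log2 fold change 0.74, adjusted p = 0.0442 from limma). Per1, a circadian clock gene, fell (log2 fold change -0.35, adjusted p = 0.0256), as did Tob2, an antiproliferative factor (-0.20, adjusted p = 0.0318). Klf2, a Krüppel-like factor, was the most abundant gene that did not pass, at 69.7, 188 and 140 FPKM in FF-10501-01-treated cells, against 76.8, 168 and 98.0 FPKM in vehicle-treated cells. FF-10501-01 replicate 1 was the lowest library of its group for all 29 of these genes, and vehicle replicate 2 the highest of its group for 23.

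Among 22 other inhibitors of signaling or mRNA stability, 16 were tested, with 1 higher, 2 lower and 13 not passed (median log2 fold change 0.13), near the 14.9% called among all genes tested. Zfp36l2, a paralog of Zfp36 that also binds AU-rich elements, was at 78.8, 80.5 and 74.3 FPKM in FF-10501-01-treated cells, against 131, 103 and 120 FPKM in vehicle-treated cells. The libraries did not overlap, and Zfp36l2 fell by 0.59 on the log2 scale (adjusted p = 0.00917 from limma). Sik1, a salt-inducible kinase, fell (log2 fold change -0.30, adjusted p = 0.0205) and Dusp7, a phosphatase of ERK, rose (0.27, adjusted p = 0.0264). Nfkbia, the inhibitor of NF-kB, was at 125 ± 23.1 FPKM in FF-10501-01-treated and 103 ± 25.6 FPKM in vehicle-treated cells (adjusted p = 0.297 from limma).

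Of 27 kinases and factors known to act upstream of these promoters 26 were tested, with 1 higher, 2 lower and 23 not passed (median log2 fold change -0.019), again near the 14.9% of all genes tested. FF-10501-01 replicate 1 was the lowest of its group for 9 of the 26. The gene of the SRF coactivator Mkl1 rose to 38.2 ± 2.17 FPKM in FF-10501-01-treated cells, against 31.2 ± 0.483 FPKM in vehicle-treated cells (adjusted p = 0.0164 from limma). Rps6ka3, which encodes the ERK-activated kinase RSK2, fell (log2 fold change -0.29, adjusted p = 0.0205), as did Mapk8, which encodes JNK1 (-0.25, adjusted p = 0.0299). Rps6ka1, which encodes RSK1, was at 211 ± 5.66 and 195 ± 3.79 FPKM in FF-10501-01-treated and vehicle-treated cells (adjusted p = 0.0708).

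Of 22 other bZIP factors listed 18 were tested. By limma 5 were higher, 0 were lower (1 where p was not adjusted) and 13 did not pass, against 7.43% higher and 7.46% lower among all genes tested, with a median log2 fold change of 0.037. Batf2, an interferon-inducible partner of Jun proteins, was at 10.9, 9.55 and 13.7 FPKM in FF-10501-01-treated cells, against 3.24, 7.84 and 5.01 FPKM in vehicle-treated cells (log2 fold change 1.01, adjusted p = 0.0287 from limma). Cebpg, a C/EBP factor that pairs with ATF4 (0.36, adjusted p = 0.0136), Cebpd, as given above, and the antioxidant factor gene Nfe2l2 (0.39, adjusted p = 0.0346) rose as well. Cebpb, the most abundant that did not pass, was at 127 ± 7.32 and 123 ± 14.5 FPKM in FF-10501-01-treated and vehicle-treated cells.

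Of 17 mRNAs known as targets of tristetraprolin 11 were tested, with 4 higher, 0 lower (0 also where p was not adjusted, from limma) and 7 not passed (median log2 fold change 0.37), against 7.43% higher and 7.46% lower among all genes tested. Il1b, which encodes IL-1 beta, was at 5.76, 9.54 and 13.1 FPKM in FF-10501-01-treated cells, against 2.08, 3.83 and 2.5 FPKM in vehicle-treated cells (log2 fold change 1.42, adjusted p = 0.0158 from limma). The libraries of the groups did not overlap for Il1b, and FF-10501-01 replicate 3 was the highest, as for the sum of the neutrophil markers. The chemokine gene Ccl2 (log2 fold change 0.76, adjusted p = 0.0189), Bcl3 (0.45, adjusted p = 0.0356) and the adhesion molecule gene Icam1 (0.23, adjusted p = 0.0354) rose, while Ccl3 was at 365 ± 77.4 FPKM in FF-10501-01-treated and 281 ± 50.3 FPKM in vehicle-treated cells (adjusted p = 0.161).

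Of 11 stress genes that are known to be induced with Atf3, 9 were tested and 0 passed limma's test in either direction, while unadjusted p-values below 0.05 were found for 1 higher gene and 0 lower genes (median log2 fold change 0.059). With 14.9% called among all genes tested, a count of 0 in so short a list is near the background. Atf4, the factor that drives many of them, was at 174 ± 11.5 FPKM in FF-10501-01-treated and 187 ± 26.0 FPKM in vehicle-treated cells (adjusted p = 0.479 from limma). Heat shock genes, which like immediate early genes are known to be induced when tissue is dissociated, numbered 12 tested of 14, with 4 higher, 0 lower (2 where p was not adjusted) and 8 not passed by limma (median log2 fold change 0.12), against 7.43% higher and 7.46% lower among all genes tested. Hsph1, an HSP110 chaperone, rose to 32.7 ± 2.28 FPKM in FF-10501-01-treated cells, against 21.5 ± 2.91 FPKM in vehicle-treated cells (adjusted p = 0.0131). Hspa1b, a stress-inducible HSP70 gene, was at 1.47, 1.65 and 4.12 FPKM in FF-10501-01-treated cells, against 0.701, 0.760 and 0.691 FPKM in vehicle-treated cells. It was tested only because the treated libraries lifted its mean above 1 FPKM, and 3 heat shock genes were higher where a mean of 5 FPKM was required. Dnaja1, in an entry merged with Mir207 (log2 fold change 0.23, adjusted p = 0.0237), and Hspe1 (0.20, adjusted p = 0.0340) rose, and Hspa8 did not pass (0.12, adjusted p = 0.298). The part of dissociation or sorting in the immediate early values was not tested. The number of calls in these lists changed with single libraries: without FF-10501-01 replicate 3 there were 0 higher genes in every list, and without vehicle replicate 1 there were 0 among inhibitors, upstream genes and tristetraprolin targets. The lower genes numbered 0 without either library among other immediate early and upstream genes. In all, over the 6 settings that leave out 1 library, there were 0 to 4 higher for other immediate early genes, 0 to 2 for inhibitors, 0 to 1 upstream, 0 to 4 for bZIP factors, 0 to 5 for tristetraprolin targets, 0 to 3 for heat shock genes and 0 to 1 for the stress genes.

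**Figure D5:**
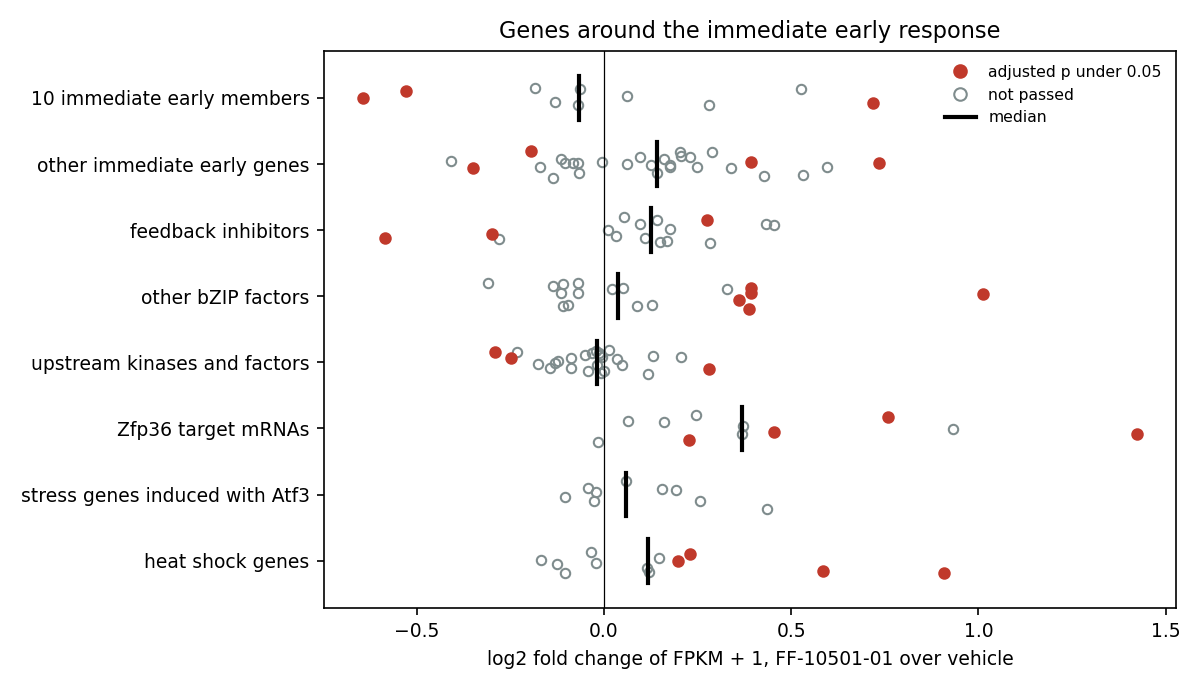
Log2 fold change of FPKM + 1, FF-10501-01 over vehicle, of each tested gene (points) in the 10 members and 7 lists of related genes, with the median of each list (bar). Red points passed an adjusted p under 0.05 in limma. The members spread to both sides of 0, and the upstream kinases and factors lie close to it.

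The genes whose profile over the 6 libraries was most like the mean of the 10 members were found by the root mean square difference of centred log2(FPKM + 1) among 10994 other genes. They were Mylpf (difference 0.032), Btg1 (0.062), H3f3b (0.071), Pmaip1 (0.076) and 2610021K21Rik (0.079). Btg1, an antiproliferative gene, belongs to the list of other immediate early genes. H3f3b, which encodes the histone variant H3.3, was at 374, 478 and 434 FPKM in FF-10501-01-treated cells, against 367, 456 and 399 FPKM in vehicle-treated cells. As for the members, replicate 2 was its highest library in both groups, and none of the 5 passed limma's test.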

How the data were processed

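RNA-Seq of GFP+ MLL-AF9 cells from 6 mice was analysed (3 FF-10501-01, 3 vehicle). The authors deposited FPKM per gene, made with Cufflinks 2.2.1 after trimming (cutadapt 1.8.1) and alignment (TopHat2 2.1.1, GRCm38). FPKM are scaled to mapped fragments and length, so that a shift of all transcripts is not visible in them, and the Cuffdiff test of the authors cannot be repeated. The study's methods give 500 ng of input RNA for the strand-specific libraries, and the labels give both 500 and 1000 ng. Of the 26384 entries, 9091 were at 0 in every library and 394 held merged genes. A gene with several entries was read from the most abundant one.

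The 11004 entries whose mean reached 1 were transformed to log2(FPKM + 1) and tested two-sided with limma 3.58.1 in R 4.3.3 (linear model, eBayes with trend). Fold changes are on this scale and understate those of low genes. Columns were assigned to groups by name. The analysis was repeated with 0.1 as pseudocount, with no filter, with a minimum of 5, with median of ratios, TPM and quantile scaling, without the trend, with a replicate block and leaving out each library. The test was checked on simulated data. Named genes are the 10 members, in each list the passed genes of smallest p, at most 4, with the most abundant gene not passed, and the 5 most alike in profile. A gene named beyond these (Egr2, Egr3, Egr4, Prdx2 and the cell markers) was chosen after its values were seen. Members and lists were chosen with earlier results of these data known. Positions are from GENCODE M21 (GRCm38). Figures were drawn with matplotlib 3.10.9.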

Additional observations from a re-analysis of the deposited data

How the results depend on the processing

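Egr1 passed under all alternatives run, and Fos, Junb, Jund, Ier2, Dusp1 and Zfp36 passed under none. Without the filter on low FPKM 0 members were higher and 1 was lower, and 337 and 244 of all genes were higher and lower, while Fosb (log2 fold change -0.53, adjusted p = 0.109) and Atf3 (0.72, adjusted p = 0.0850) no longer passed limma. The filter-free setting tests 17293 entries. Without a trend of variance, 0 members were higher and 1 was lower, 512 of all genes were lower, and Fosb (-0.53, adjusted p = 0.0718) and Atf3 (0.72, adjusted p = 0.0519) did not pass. With the replicate number as a block 2 members were higher, since Jun passed (0.53, adjusted p = 0.0323 from limma). Other immediate early genes numbered 7 higher and 0 lower under this block. The numbers follow the order of the column names, and no pairing of the libraries is given. Deviations from the group means correlated at -0.011, -0.074 and -0.036 across genes between same-numbered libraries. With 3 libraries per group such values cannot exclude a pairing. As no pairing is known, no weight is given to the block. With 1 library left out, 0 to 1 members were higher and 1 to 2 lower, and 147 to 884 and 71 to 789 of all genes were higher and lower, the fewest without FF-10501-01 replicate 3. The log2 fold change ranged over these settings from -0.71 to -0.37 for Fosb and from 0.57 to 0.92 for Atf3, and it turned sign for Junb (0.062 without vehicle replicate 2, range -0.14 to 0.062), Jund (0.091 without FF-10501-01 replicate 1 and 0.080 without vehicle replicate 2, range -0.21 to 0.091) and Zfp36 (-0.032 without FF-10501-01 replicate 2 and -0.017 without vehicle replicate 1, range -0.032 to 0.18), none of which passed. No scaling changed a member's call. The counting error of each value is unknown, since the table holds no read totals.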
